A study of Mus musculus with 48 samples.

Results

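The oxidative phosphorylation genes were taken as the probes whose gene name on the array begins with Nduf, Uqcr, Atp5, Cox4i, Cox5, Cox6, Cox7 or Cox8, or is Sdha, Sdhb, Sdhc, Sdhd or Cyc1. The scanner had to call a probe well above its background on 24 or more of the 48 arrays, and each gene was represented by its brightest probe. Of 93 gene names that fit, 91 were kept, out of 22029 gene names tested on the array. Cox7b2, well above background on 22 arrays, and Cox8c, on 1 array, fell short, whereas Cox8b passed with 29, and Atp5s and Cox6a2 with 47. The other 88 members were well above background on all 48 arrays. The members comprised 7 core and 29 supernumerary subunits of complex I, 7 complex I assembly factors, 4 subunits of complex II, 9 of complex III, 15 of complex IV and 15 of complex V, and 5 relatives that are not subunits (Atp5s, Atp5sl, Atp5c1-ps, Cox7a2l and Ndufa4l2).

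RNA came from the livers of 48 male C57BL/6J mice, 8 in each of 6 groups and 1 array per mouse. WT mice carried intact Pparα. Pparα hep-/- mice were albumin-Cre+/- Pparα flox/flox, so that the gene is deleted in hepatocytes and stays intact in other cells. Pparα -/- mice lack it in every cell. Each genotype received the CTRL diet or the HFD, in which fat supplies 60% of the energy, for 12 weeks per the labels, and the mice were 20 weeks old. The paper's methods give a shorter time on the diet. All were housed at thermoneutrality. WT mice were purchased, whereas both deletion lines were bred in the research facility, so colony and genotype cannot be told apart in comparisons with WT. Pparα is the nuclear receptor that drives fatty acid oxidation genes in the liver. The arrays formed 2 wash batches, each of which held mice of all 6 groups. Array weights, which lower the influence of noisy arrays, ranged from 0.189 to 2.53. The brighter Ppara probe was lower than in WT mice by limma in both deletions, with log2 changes of -0.65 (Pparα -/-) and -0.42 (Pparα hep-/-) for CTRL-fed mice and of -1.08 and -0.85 for HFD-fed mice. A dimmer Ppara probe had mean log2 signals of 12.87 (WT), 12.66 (Pparα hep-/-) and 11.73 (Pparα -/-) in CTRL-fed mice. In HFD-fed mice these were 13.29, 12.68 and 12.07. On the CTRL diet its Pparα hep-/- mice (11.77 to 12.95) overlapped the WT mice (12.36 to 13.24). Of 6 hepatocyte markers 2 were lower in Pparα -/- than in WT livers on each diet, namely Apoa1, the main protein of high-density lipoprotein, by -0.51 and -0.18 (CTRL and HFD), and Cps1, the first enzyme of the urea cycle, by -0.62 and -0.46, whereas Alb, Ttr, Serpina1a and Tat did not pass.

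Oxidative phosphorylation couples the oxidation of NADH and succinate to the synthesis of ATP at the inner mitochondrial membrane. Complex I takes electrons from NADH and complex II takes them from succinate. Both pass them through ubiquinone to complex III, and cytochrome c carries them to complex IV, which reduces oxygen. Protons pumped on the way flow back through complex V, the ATP synthase. Most subunits are encoded in the nucleus, whereas a small set, mostly of complexes I and IV, is encoded in the mitochondrial DNA. Several complex IV subunits exist as a widely expressed isoform and as an isoform typical of muscle and heart. Liver depends on the chain to reoxidise the carriers reduced by fatty acid oxidation.

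The largest group of members that differed was lower in Pparα -/- than in WT livers on the HFD, where 48 of the 91 members (52.7%) were lower and 7 were higher by limma, with 0.05 as the highest adjusted p taken as called. Among all 33323 tested probes 24% were lower and 21.8% higher in that comparison. Values here are log2 signals after quantile normalization, and a change is a fitted difference in them that weights the arrays, so it can depart from the difference of the group means. The median change of the members was -0.12, against -0.03 for all tested probes, and it was -0.13 within each wash batch. Without array weights 31 members were lower and 5 higher, where 16.5% of all probes were lower and 15.2% higher, and the median was -0.08. With the processed signal scaled to each array's 75th percentile the median was -0.28, against -0.09 for all probes. The changes were small. Of the 55 that passed, 4 reached 0.5 on the log2 scale in either direction (Cox7a1, Cox7a2, Ndufa6 and Cox6a2). In a liver homogenate, fewer cells of a type and less RNA per cell cannot be told apart.

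Pparα -/- livers also differed from Pparα hep-/- livers on the HFD, with 45 members lower (49.5%) and 1 higher, where 15.4% of all probes were lower and 15.2% higher. The median change was -0.1, against 0 for all probes. Pparα hep-/- and WT livers on the HFD differed in fewer members, with 14 lower (15.4%, against 13.4% of all probes) and 6 higher (6.59%, against 13.3%), and a median of -0.01. The median was 0.03 without array weights and -0.16 with the processed signal scaled to each array's 75th percentile, where that of all probes was -0.07. These comparisons share mice of the same HFD groups. With that scaling, in place of quantile normalization, the split became 2 higher and 75 lower in Pparα -/- against WT livers, where 18.6% of all probes were higher and 30.5% lower. It became 2 higher and 49 lower in Pparα hep-/- against WT livers, where 12.4% were higher and 20.4% lower. Fewer members were called in this last comparison without array weights, with no wash term and with no filter, as given in the last section. In those settings 4.56%, 9.25% and 5.15% of all probes were higher and 5.18%, 9.12% and 4.8% lower.

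On the CTRL diet the genotypes differed in both directions. For Pparα -/- against WT livers, 14 members were higher and 11 lower, where 15.6% of all probes were higher and 18.7% lower, so the shares of 15.4% and 12.1% were near or under those of all probes. The scaling to the 75th percentile gave 10 and 6, where 15.1% and 19.5% of all probes passed. With no filter 11 and 5 passed, where 7.99% and 9.48% of all probes did. In Pparα hep-/- against WT livers 20 members were higher (22%) and 5 lower (5.49%), where 11.3% of all probes were higher and 13.4% lower. Without array weights these were 13 and 3, where 7.43% and 9.12% of all probes passed. Between Pparα -/- and Pparα hep-/- livers, 7 were higher (7.69%) and 21 lower (23.1%), where 12.2% were higher and 13% lower, and the scaling to the 75th percentile gave 2 and 18 (10.7% and 14% of all probes). All 11 members that were lower in Pparα -/- than in WT livers on the CTRL diet were also among the 48 lower ones on the HFD.

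**Figure D1:**
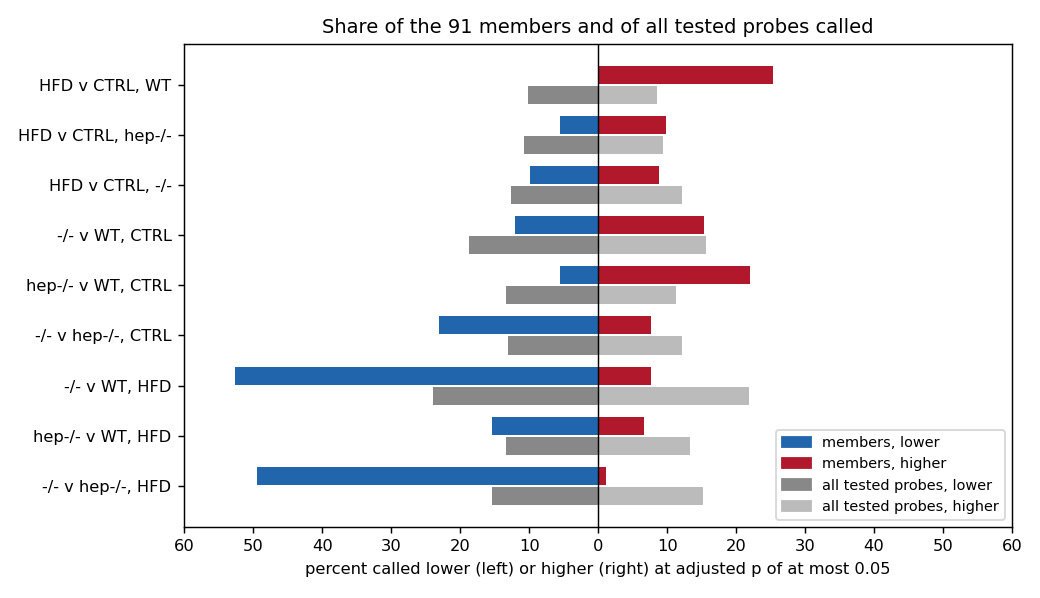
Share of the 91 members (coloured bars) and of all 33323 tested probes (grey bars) called lower, to the left, or higher, to the right, (adjusted p not above 0.05) in each of the 9 comparisons of 2 groups, in percent. The members stand farthest from all probes in the Pparα -/- livers on the HFD, with 52.7% lower than in WT and 49.5% lower than in Pparα hep-/- livers, and in the HFD response of WT livers, where 25.3% were higher and 0 lower.

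The widest differences between genotypes lay in complex IV, cytochrome c oxidase. Cox7a1 encodes the subunit VIIa isoform typical of heart and muscle. Its log2 signal was 9.54, 9.93 and 10.15 (lowest, median and highest of 8 mice) in WT CTRL mice and 8.24, 8.54 and 9 in Pparα -/- CTRL mice. On the HFD it was 9.03, 9.8 and 10.66 in WT mice and 8.4, 8.72 and 8.9 in Pparα -/- mice. In neither diet did the Pparα -/- mice overlap the WT mice, and they lay under the Pparα hep-/- mice as well, whose values ran from 9.43 to 10.3 on the CTRL diet and from 9.22 to 10.26 on the HFD. Compared with WT, Cox7a1 changed by -1.42 in CTRL-fed mice (0.374-fold, standard error 0.16, adjusted p = 1.77e-09 by limma) and by -1.18 in HFD-fed mice (0.441-fold, standard error 0.14, adjusted p = 2.64e-09). The Pparα hep-/- livers did not differ from WT in the test of this gene.

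Cox7a2, the isoform of the same subunit that is dominant in liver, was lower in the same mice. Its signal was 15.37, 15.59 and 15.75 in WT CTRL mice and 14.89, 14.98 and 15.32 in Pparα -/- CTRL mice. On the HFD the values were 15.31, 15.5 and 15.82 in WT and 14.75, 14.89 and 15.11 in Pparα -/- mice. Neither pair of groups overlapped, and Cox7a2 changed by -0.55 among CTRL-fed mice (adjusted p = 6.63e-10 by limma) and by -0.65 among HFD-fed mice (adjusted p = 5.7e-14), with standard errors of 0.06 and 0.05. Both isoforms were also lower than in Pparα hep-/- livers, Cox7a1 by -1.37 and -1.04 and Cox7a2 by -0.51 and -0.66 on the CTRL diet and the HFD, and again without overlap.

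Cox6b1, which encodes the widely expressed subunit VIb isoform, differed in the opposite direction. Its signal ran from 12.49 to 12.81 in WT CTRL mice (median 12.66) and from 13 to 13.38 (median 13.14) in Pparα -/- CTRL mice. On the HFD it ran from 12.42 to 12.92 (median 12.79) in WT mice and from 12.93 to 13.1 (median 13.03) in Pparα -/- mice. All Pparα -/- mice lay above all WT mice in both diets, with changes of 0.47 (standard error 0.06, adjusted p = 1.69e-08 by limma) and 0.22 (standard error 0.05, adjusted p = 0.000386). It was the only member called higher than in both other genotypes in both diets (1.1% of members), where 4.34% of all probes were. The members called lower in all 4 of these comparisons numbered 8 (8.79%), where 5.04% of all probes were, namely Cox5a, Cox7a1, Cox7a2, Cox8a, Ndufa3, Ndufa6, Sdhd and Uqcr10. For Ndufa3 a dimmer probe was called in the opposite direction in 3 of the 4, as given with complex I.

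The probes for Cox7a1 and Cox6b1 are printed because Pparα -/- mice lay wholly below (Cox7a1) or wholly above (Cox6b1) both other genotypes on both diets. In the files the first covers chr7:30970337-30970948 and the second chr7:31409575-31411071 of mm9. Both spans exceed the 60 bases of a probe, so each probe crosses at least 1 intron. No base is in capitals.
Cox7a1: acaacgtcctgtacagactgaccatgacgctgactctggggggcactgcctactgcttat
Cox6b1: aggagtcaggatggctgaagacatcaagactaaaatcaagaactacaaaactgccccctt

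Of the 15 complex IV members, Cox7a1 and Cox7a2 included, 7 were lower, 2 were higher and 6 did not pass in Pparα -/- against WT livers on the HFD, where 24% of all probes were lower and 21.8% higher. Cox5a, a supernumerary subunit encoded in the nucleus, was at 15.67, 15.9 and 15.99 in WT HFD mice and at 15.5, 15.52 and 15.72 in Pparα -/- HFD mice. The fitted change was -0.34 (standard error 0.05, adjusted p = 4.57e-08 by limma) and it was -0.21 among CTRL-fed mice (adjusted p = 0.00145). Cox8a, the liver isoform of subunit VIII, changed by -0.21 on the HFD and by -0.16 on the CTRL diet. Cox4i1, the common isoform of subunit IV, did not pass the test in any of the 9 comparisons of 2 groups, with -0.08 (standard error 0.04) on the HFD. Cox6a1, Cox4i2, Cox6b2 and Ndufa4 did not pass the test against WT on either diet in Pparα -/- mice.

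Cox6c, which encodes the small subunit VIc, was lower in Pparα hep-/- than in WT livers. It was at 15.06, 15.29 and 15.52 in WT CTRL mice and at 14.87, 14.95 and 15.09 in Pparα hep-/- CTRL mice, a change of -0.36 (standard error 0.07, adjusted p = 8.67e-05 by limma), with all 8 mice below the WT mean. Among HFD-fed mice its changes against WT were -0.18 (Pparα hep-/-) and -0.33 (Pparα -/-). Cox6a2 and Cox8b, the muscle-type isoforms of subunits VIa and VIII, lay near background. Cox6a2, which was well above background on all 8 arrays of both HFD groups but ranged from 6.02 to 7.1 in WT HFD and from 6.29 to 7.61 in Pparα -/- HFD mice, changed by 0.74 (standard error 0.23, adjusted p = 0.00727). Cox8b was well above background on 7 of 8 arrays in both Pparα hep-/- groups and on 1 of 8 in Pparα -/- CTRL mice, so no size is given for its difference between those genotypes. The striated muscle markers Myh4, Tnnt3 and Myl1 were at low signal and did not pass the test in these comparisons, and Acta1 and Ckm were not above background often enough to be tested. Their summed signal had a median of 227 in WT CTRL and 242 in Pparα -/- CTRL mice, and reached 1550 in 1 WT CTRL mouse against at most 360 outside that group. In WT CTRL mice Cox6a2 ranged from 5.99 to 9.66 (median 6.2) and Cox8b from 5.6 to 8.56 (median 5.74), with the highest value of both in the same mouse, and the part of muscle RNA in these values was not tested.

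**Figure D2:**
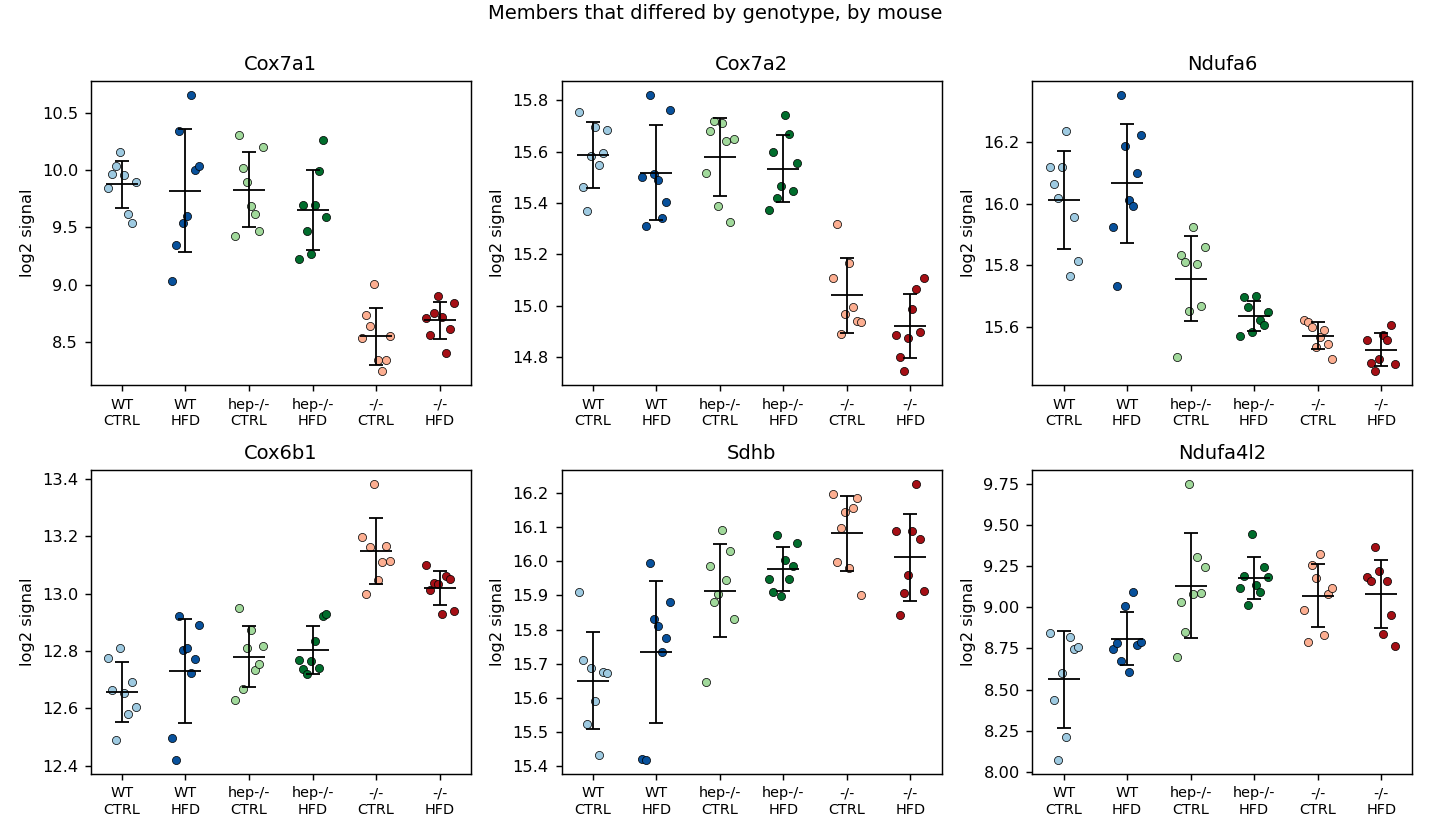
Log2 signal of 6 members in each of the 48 mice, by genotype and diet, with hep-/- and -/- for the Pparα deletions, the mean as a horizontal line and 1 SD as bars (n = 8). Cox7a1 and Cox7a2 sit lower and Cox6b1 higher in both Pparα -/- groups than in the other 4 groups, whereas Ndufa6 is lower and Sdhb and Ndufa4l2 are raised in both deletions relative to WT. The vertical axes do not start at 0.

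In complex I, Ndufa6 was the 1 member of 91 called lower in both deletions on both diets, where 2.62% of all probes were. It encodes a supernumerary subunit of the LYR motif family. Its signal was 15.77, 16.04 and 16.24 in WT CTRL mice, 15.5, 15.81 and 15.93 in Pparα hep-/- CTRL mice and 15.5, 15.58 and 15.62 in Pparα -/- CTRL mice. On the HFD it was 15.73, 16.06 and 16.35 in WT, 15.57, 15.64 and 15.7 in Pparα hep-/- and 15.46, 15.53 and 15.61 in Pparα -/- mice. Neither HFD deletion group overlapped the WT mice. The changes against WT were -0.49 and -0.6 in Pparα -/- mice (adjusted p = 7.15e-10 and 1.53e-14 by limma) and -0.29 and -0.49 in Pparα hep-/- mice (adjusted p = 6.05e-05 and 1.31e-10) on the CTRL diet and the HFD. Its probe lies at chr15:82180622-82180681 of mm9, 3.45 megabases from the Ppara probes on the same chromosome. The other members on that chromosome were Ndufb9, Atp5g2 and Cox6c, at distances of 26.86, 16.86 and 49.77 megabases. Whether the position plays a part was not tested.

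Of the 29 supernumerary subunits of complex I, 18 were lower and 1 higher in Pparα -/- than in WT livers on the HFD, where 48 of all 91 members were lower. Against Pparα hep-/- livers on the HFD 18 were lower and 0 higher, where 45 of all 91 members were lower. Of all probes 24% were lower and 21.8% higher in the first comparison, and 15.4% and 15.2% in the second. The medians of these subunits were -0.19 and -0.17, against -0.03 and 0 for all probes. Against WT, the lower shares of complexes III and V, given below, were close to that of these subunits. Ndufb3 changed by -0.45 against WT (standard error 0.06, adjusted p = 1.1e-07 by limma), from 13.58, 13.97 and 14.18 in WT HFD mice to 13.45, 13.62 and 13.67 in Pparα -/- HFD mice. Ndufc2, another membrane-arm subunit, changed by -0.27 against WT and by -0.4 against Pparα hep-/- mice, which it did not overlap. Ndufs5, Ndufa11, Ndufa1 and Ndufv3 changed by -0.3, -0.3, -0.29 and -0.28 against WT.

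Of the 7 core subunits, among which are those that hold the flavin and iron-sulphur clusters, 3 were lower and 0 higher in Pparα -/- than in WT livers on the HFD, against the same 24% and 21.8%, with a median of -0.05 against -0.03 for all probes. The difference between core and supernumerary subunits was not tested. Ndufs1, which encodes the 75 kDa subunit with iron-sulphur clusters, changed by -0.18 (standard error 0.04, adjusted p = 0.00074 by limma), Ndufs8 by -0.11 and Ndufv2 by -0.09. Ndufv1, which binds NADH and did not pass, was at 0 with a standard error of 0.04. A p that misses the threshold leaves changes of up to about 2 standard errors possible.

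Ndufab1, the mitochondrial acyl carrier protein, was higher in both deletions on both diets by its brightest probe, as were 4 of the 91 members in all (Ndufa4l2, Ndufab1, Sdhb and Sdhc), where 2.17% of all probes were. It was at 14.24, 14.5 and 14.65 in WT CTRL mice and at 14.67, 14.91 and 14.99 in Pparα -/- CTRL mice, without overlap, a change of 0.44 (standard error 0.06, adjusted p = 7.37e-08 by limma). A dimmer probe of Ndufab1 moved the opposite way in that comparison, by -0.43 (adjusted p = 1.07e-05), so the direction for the gene depends on the probe. The same opposition held in Pparα hep-/- mice on the CTRL diet, 0.31 against -0.25, and in Pparα -/- mice on the HFD, 0.27 against -0.29. Ndufa3 also had opposing probes in Pparα -/- against WT livers on the HFD, -0.24 by its brightest probe and 0.33 by one near background. The same probe opposed it against Pparα hep-/- livers on the CTRL diet (0.29 against -0.12) and the HFD (0.37 against -0.18) and in the WT response to the HFD (-0.22 against 0.16).

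Assembly factors help to build complex I and leave it. In Pparα hep-/- livers on the CTRL diet Ndufaf3 and Ndufaf7 were higher than in WT by 0.38 and 0.35, and in Pparα -/- livers by 0.34 and 0.32 (adjusted p = 0.000178 and 0.000172 by limma). Ndufaf7, a mitochondrial methyltransferase, ran from 10.36 to 11.01 in WT CTRL mice and from 10.9 to 11.1 in Pparα -/- CTRL mice, so that these overlapped. Ndufaf4 changed by -0.42 in livers of CTRL-fed Pparα hep-/- mice (standard error 0.1, adjusted p = 0.00172) and by -0.27 on the HFD.

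Complex II, which also serves the tricarboxylic acid cycle, split between its subunits. Sdhb, its iron-sulphur subunit, was at 15.43, 15.67 and 15.91 in WT CTRL mice, 15.65, 15.92 and 16.09 in Pparα hep-/- CTRL mice and 15.9, 16.12 and 16.2 in Pparα -/- CTRL mice. It was higher in both deletions on both diets, with changes of 0.42 (adjusted p = 1.95e-06 by limma) and 0.21 (adjusted p = 0.00293) for Pparα -/- against WT on the CTRL diet and the HFD, although a second probe of Sdhb gave 0.23 and -0.12, the latter not past the test. With the processed signal scaled to each array's 75th percentile the HFD change of Sdhb was 0 in Pparα -/- and -0.03 in Pparα hep-/- mice. Sdhc, a membrane anchor, was higher in both deletions on both diets as well, by 0.13 and 0.18 in Pparα -/- mice. Sdhd, the other anchor, was at 14.63, 14.82 and 14.97 in WT CTRL mice and at 14.33, 14.51 and 14.71 in Pparα -/- CTRL mice, and it changed by -0.33 (adjusted p = 5.45e-06) and by -0.31 on the HFD (adjusted p = 5.93e-07). Sdha, which binds the flavin, did not pass the test in any comparison of 2 groups.

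Complex III had 6 of 9 members lower and 0 higher in Pparα -/- than in WT livers on the HFD, and 7 lower and 0 higher than in Pparα hep-/- livers, where 24% and 15.4% of all probes were lower and 21.8% and 15.2% higher. Uqcr11, a small subunit, was at 15.86, 16.22 and 16.31 in WT HFD mice and at 15.68, 15.85 and 15.95 in Pparα -/- HFD mice, a change of -0.38 (standard error 0.05, adjusted p = 3.03e-08 by limma), with all 8 mice below the WT mean. Cyc1, the heme-bearing cytochrome c1, was at 15.29, 15.55 and 15.76 in WT and at 15.13, 15.24 and 15.4 in Pparα -/- mice, a change of -0.35 (standard error 0.06, adjusted p = 4.38e-06). A second bright probe of Cyc1 gave -0.12 (adjusted p = 0.0335). Uqcrc1, a core protein, changed by -0.12, whereas Uqcrfs1, the Rieske iron-sulphur protein, was at -0.06 and did not pass.

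In complex V, 9 of 15 members were lower and 1 (Atp5g1, at 0.1) was higher in Pparα -/- than in WT livers on the HFD, where 24% of all probes were lower and 21.8% higher. Atp5e, Atp5l, Atp5g3, Atp5k and Atp5a1 changed by -0.27, -0.25, -0.25, -0.23 and -0.21. Atp5a1, the catalytic-sector alpha subunit, ran from 16.42 to 17.11 in WT HFD mice and from 16.57 to 16.71 in Pparα -/- HFD mice, so the groups overlapped, while all 8 Pparα -/- mice lay below the Pparα hep-/- HFD mice, which ran from 16.77 to 16.93. Atp5b, the beta subunit that makes ATP, was at -0.05 and did not pass against WT.

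Among the relatives, Ndufa4l2, a paralogue of the complex IV component Ndufa4, was higher in both deletions on both diets. It was at 8.07, 8.67 and 8.84 in WT CTRL mice, 8.7, 9.08 and 9.75 in Pparα hep-/- CTRL mice and 8.79, 9.1 and 9.32 in Pparα -/- CTRL mice. The changes were 0.72 for Pparα hep-/- (adjusted p = 1.98e-06 by limma) and 0.52 for Pparα -/- (standard error 0.11, adjusted p = 0.000195), with 1 and 0.49 within the first and second wash batch for the former. Atp5sl, named for its likeness to subunit s, changed by -0.48 in Pparα hep-/- and by -0.39 in Pparα -/- livers on the HFD. In 9 of the 91 members no comparison of 2 groups passed the test, and their changes ran from -0.16 to 0.14.

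**Figure D3:**
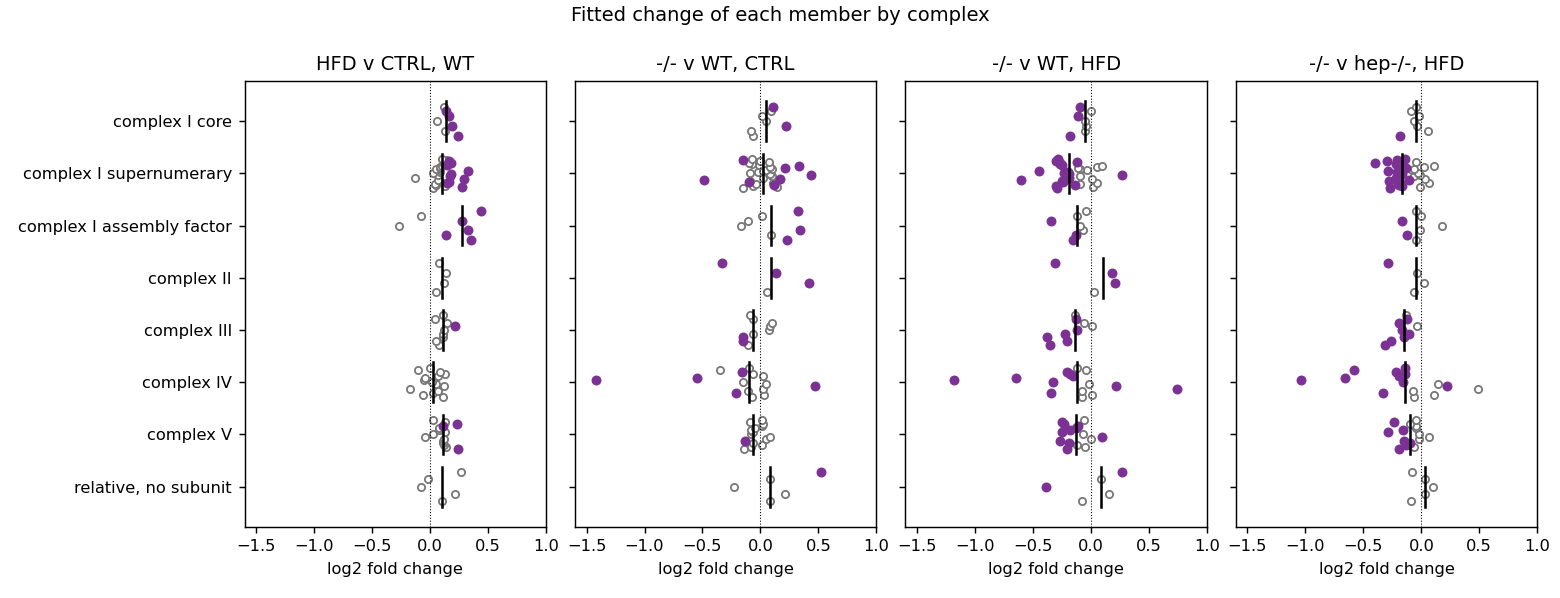
Fitted log2 change of each of the 91 members in 4 comparisons, by complex or role. Each point is 1 member, filled where the adjusted p was at most 0.05, and the black line is the median of the row. In WT livers on the HFD the assembly factors of complex I have the highest median (0.28) and complex IV the lowest (0.03), and in Pparα -/- against WT livers on the HFD most rows lie left of 0, with the supernumerary subunits of complex I at -0.19.

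The HFD raised 23 members (25.3%) and lowered 0 in WT livers, where 8.6% of all probes were higher and 10.1% lower. Before adjustment 46 members were under a p of 0.05 by limma in either direction, a threshold for which no share of all probes is given. The median change was 0.11, against -0.01 for all probes, and 0.1 within each wash batch. Without array weights 15 members rose, where 5.95% of all probes were higher. Of the 23, 19 belonged to complex I or its assembly, 3 to complex V (Atp5a1, Atp5k and Atp5j2) and 1 to complex III (Uqcrc2), and 0 of 15 in complex IV and 0 of 4 in complex II passed. In 5 of 7 assembly factors the HFD raised the signal, with Ndufaf7, Ndufaf1, Ndufaf3, Ndufaf5 and Ndufaf2 at 0.44, 0.35, 0.33, 0.28 and 0.14.

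Ndufaf7 rose from 10.36, 10.78 and 11.01 in WT CTRL mice to 11, 11.13 and 11.22 in WT HFD mice (standard error 0.07, adjusted p = 6.23e-06 by limma), with all 8 mice above the CTRL mean. A second probe of Ndufaf7 gave 0.47. Ndufs8, a core subunit with iron-sulphur clusters, was the 1 member whose groups did not overlap (0.252% of all probes lay wholly higher), at 14.62, 14.78 and 14.85 on the CTRL diet and at 14.87, 14.94 and 15 on the HFD, a change of 0.16 (adjusted p = 0.00314). Ndufb3 rose by 0.33 (standard error 0.07, adjusted p = 0.00109), from a median of 13.6 to 13.97. Ndufa7 and Ndufa10 rose by 0.29 and 0.28, Ndufs1 and Atp5a1 by 0.24 each, and Ndufv1 by 0.14. The WT HFD mice spread more than the other groups, and the mean of all 91 members relative to WT CTRL mice ran from -0.15 to 0.23 among them (median 0.1), against 0.04 to 0.13 in Pparα hep-/- HFD and -0.07 to 0.02 in Pparα -/- HFD mice. The WT HFD mice with the lowest means, -0.151 and -0.082, had array weights of 0.343 and 0.537. Those at 0.125 and 0.179 had weights of 1.81 and 1.87, while the one at 0.088 had 0.372.

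In Pparα hep-/- livers the HFD raised 9 members (9.89%) and lowered 5 (5.49%), where 9.46% of all probes were higher and 10.8% lower. Ndufv1 rose by 0.21 (standard error 0.04, adjusted p = 0.000292 by limma), with all 8 mice above the CTRL mean, and 4 of the 9 complex III members rose (Uqcrfs1, Cyc1, Uqcrc2 and Uqcrc1, by 0.2, 0.18, 0.17 and 0.14). Cox6c rose by 0.2. Atp5sl, Ndufaf6 and Cox4i2 changed by -0.28, -0.23 and -0.21. Without array weights 1 member was called, where 1.58% of all probes were higher and 2.23% lower. With the processed signal scaled to the 75th percentile 36 were lower and 0 higher, where 16.4% of all probes were lower and 8.65% higher, and Ndufv1 was at -0.01.

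In Pparα -/- livers the HFD raised 8 members (8.79%) and lowered 9 (9.89%), where 12.2% of all probes were higher and 12.6% lower. Ndufa8 changed by -0.34 (standard error 0.06, adjusted p = 0.000155 by limma), and Ndufa12, with -0.21, was the 1 member whose diet groups did not overlap (0.708% of all probes lay wholly lower). Ndufb6 changed by -0.23. Atp5b and Sdhc rose by 0.18 each and Atp5a1 by 0.17. In 6 cases a called member had another bright probe to compare, and in 3 of them the signs matched. With the processed signal scaled to the 75th percentile 54 members were lower and 0 higher, where 16% of all probes were lower and 10.4% higher, and Atp5b and Atp5a1 turned to -0.13 and -0.11. Without array weights 4 members were called, 1 of them higher, where 5.78% of all probes were higher and 6.33% lower. Uqcrc2, a core protein of complex III, rose in all 3 genotypes, by 0.22 (WT), 0.17 (Pparα hep-/-) and 0.16 (Pparα -/-).

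**Figure D4:**
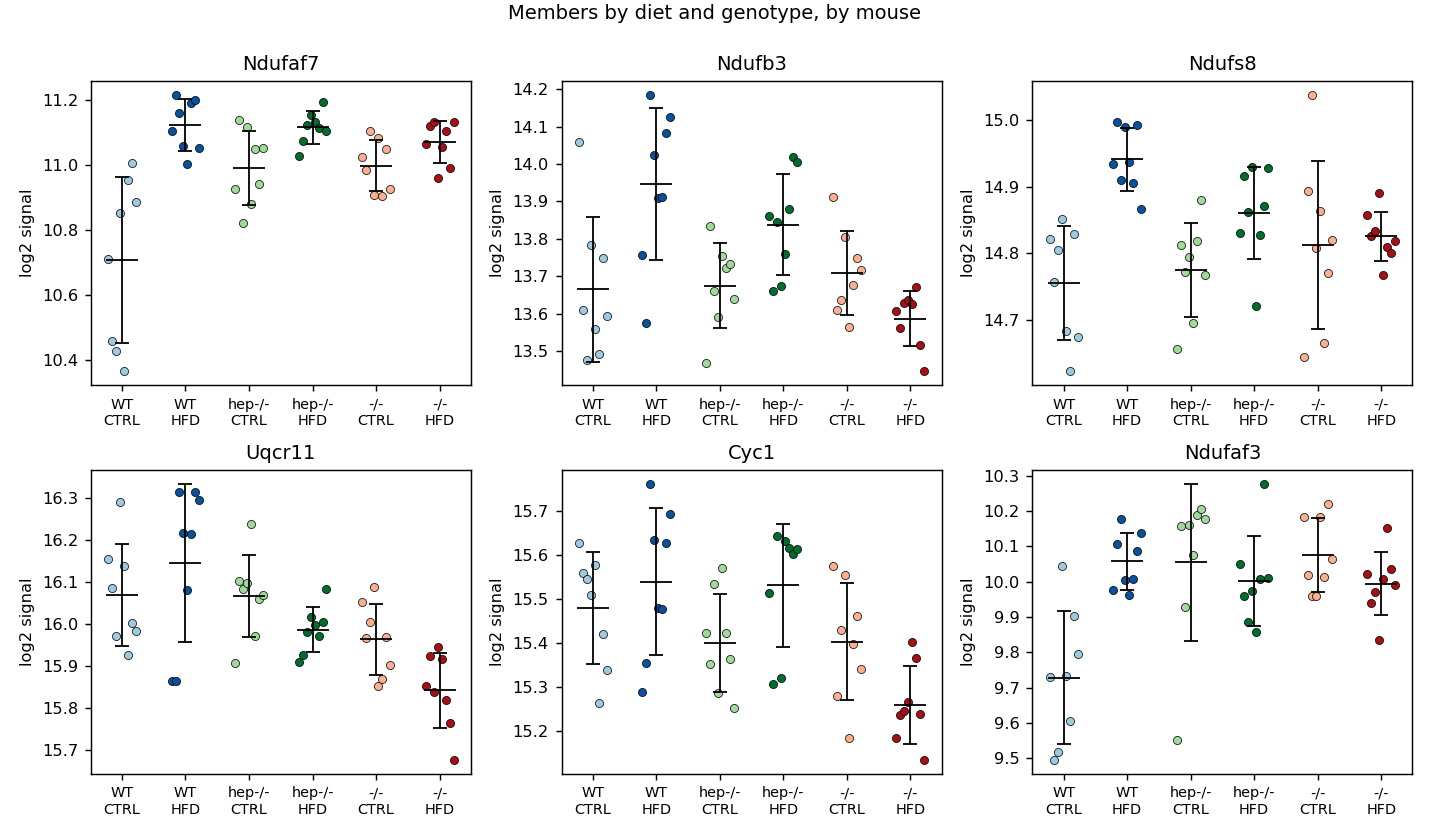
Log2 signal of 6 members in each of the 48 mice, by genotype and diet, with the mean as a horizontal line and 1 SD as bars (n = 8). Ndufaf7, Ndufaf3 and Ndufs8 are higher on the HFD in WT mice, and the means of Ndufb3, Uqcr11 and Cyc1 are lowest in Pparα -/- mice on the HFD, where the median of Ndufb3 (13.62) is not below that of WT CTRL mice (13.6). The vertical axes do not start at 0.

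The diet response itself differed between genotypes. Against the WT response, that of Pparα -/- livers was lower in 22 members (24.2%) and higher in 0, where 7.42% of all probes were lower and 6.93% higher. The median difference was -0.13, against 0 for all probes. Without array weights 8 members were lower, where 2.73% of all probes were, and with the scaling to the 75th percentile 56 were, where 9.71% were. Of the 22, 15 were subunits of complex I and 4 were assembly factors. Ndufb3 differed by -0.47 (standard error 0.1, adjusted p = 0.000953 by limma), since it rose by 0.33 in WT livers and was at a median of 13.7 on the CTRL diet and 13.62 on the HFD in Pparα -/- mice. Ndufaf3, Ndufaf1 and Ndufaf7 differed by -0.42, -0.38 and -0.36. In these assembly factors the Pparα -/- CTRL mice were already above the WT CTRL mice, so that the levels on the HFD lay closer together. Ndufaf3, for instance, was at a median of 9.73 in WT CTRL, 10.05 in WT HFD, 10.04 in Pparα -/- CTRL and 10 in Pparα -/- HFD mice.

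Against the WT response, that of Pparα hep-/- livers was lower in 6 members (6.59%) and higher in 0, where 5.79% of all probes were lower and 4.62% higher. These were Ndufaf3, Ndufaf7, Ndufa7, Ndufaf2, Ndufs3 and Atp5k, at -0.44, -0.34, -0.26, -0.23, -0.21 and -0.21. The response of Pparα -/- livers was lower than that of Pparα hep-/- livers in 6 members (6.59%) and higher in 0, where 1.3% of all probes were lower and 2.12% higher. These were Cox6c, Cyc1, Ndufb3, Ndufb6, Ndufa1 and Ndufs5, at -0.37, -0.33, -0.31, -0.3, -0.29 and -0.25. Cyc1, for instance, rose by 0.18 in Pparα hep-/- livers, and in Pparα -/- mice it was at a median of 15.41 on the CTRL diet and 15.24 on the HFD. A second bright probe of Cyc1 did not share the sign of this difference between responses. Neither count was stable, and the shares of all probes moved with the setting too. Without array weights 0 members passed in either comparison by limma, where 0.642% and 0.096% of all probes were lower and 0.252% and 0.234% higher. Under an unadjusted p of 0.05 by limma there were 5 and 13 members, a threshold for which no share of all probes is given. With the scaling to the 75th percentile 37 members were lower in the first, where 9.05% of all probes were. The median difference of the members went from -0.09 to -0.22, and that of all probes from 0.01 to -0.05. In the second 1 member was lower, where 0.99% of all probes were. The second count was also 1 with no filter and 2 with no wash term, where 0.228% and 0.81% of all probes were lower. It was 3 with slide or replicate number as a block (0.975% and 1.01% of all probes) and 10 with normexp (1.54%).

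The promoters of members were read for letters that known regulators of respiratory genes bind, because many members moved together. RefSeq promoters, from 250 bases before to 50 bases after a start site in GRCm38.p6, were found for 74 of the 91 members. The NRF1 palindrome, whose letters stand in capitals in the windows printed after this paragraph, was present on either strand in 7 of the 74 (9.46%), against 1.07% of 27025 genes with a promoter. CCGGAAG, bound by GABP, was in 17 (23%, against 9.93%), AAGATGGCG, bound by YY1, in 8 (10.8%, against 1.64%), and TCAAGGTCA, bound by estrogen-related receptors, in 2 (2.7%, against 0.466%). CCAAT was in 33 (44.6%, against 41.1%). The PPAR response element, searched as a perfect direct repeat of AGGTCA with 1 free base between, was in 0 of 74, against 0.0481% of genes, which says only that these letters are not in these windows. Both strands were searched, the receptor motif TCAAGGTCA shares the letters AGGTCA with that repeat, and a match is a description, not a binding site.

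Windows of 60 bases around the NRF1 letters, in capitals, are shown for 4 members as examples of a feature that the choice of members did not use. They lie at chr5:108434415-108434474 (minus strand) for Atp5k, chr17:56717677-56717736 (plus strand) for Ndufa11, chr4:24897945-24898004 (plus strand) for Ndufaf4 and chr15:102671055-102671114 (minus strand) for Atp5g2, all in GRCm38.p6.
Atp5k: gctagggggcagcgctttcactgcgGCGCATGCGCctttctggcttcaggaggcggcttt
Ndufa11: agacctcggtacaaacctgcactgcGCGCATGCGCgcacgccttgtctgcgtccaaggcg
Ndufaf4: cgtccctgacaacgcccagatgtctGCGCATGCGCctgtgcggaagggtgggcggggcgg
Atp5g2: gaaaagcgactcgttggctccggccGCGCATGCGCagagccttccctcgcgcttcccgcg
These 4 members did not move alike. In Pparα -/- against WT livers on the HFD, Ndufa11 and Atp5k were lower by -0.3 and -0.23, whereas Ndufaf4 and Atp5g2 did not pass.

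**Figure D5:**
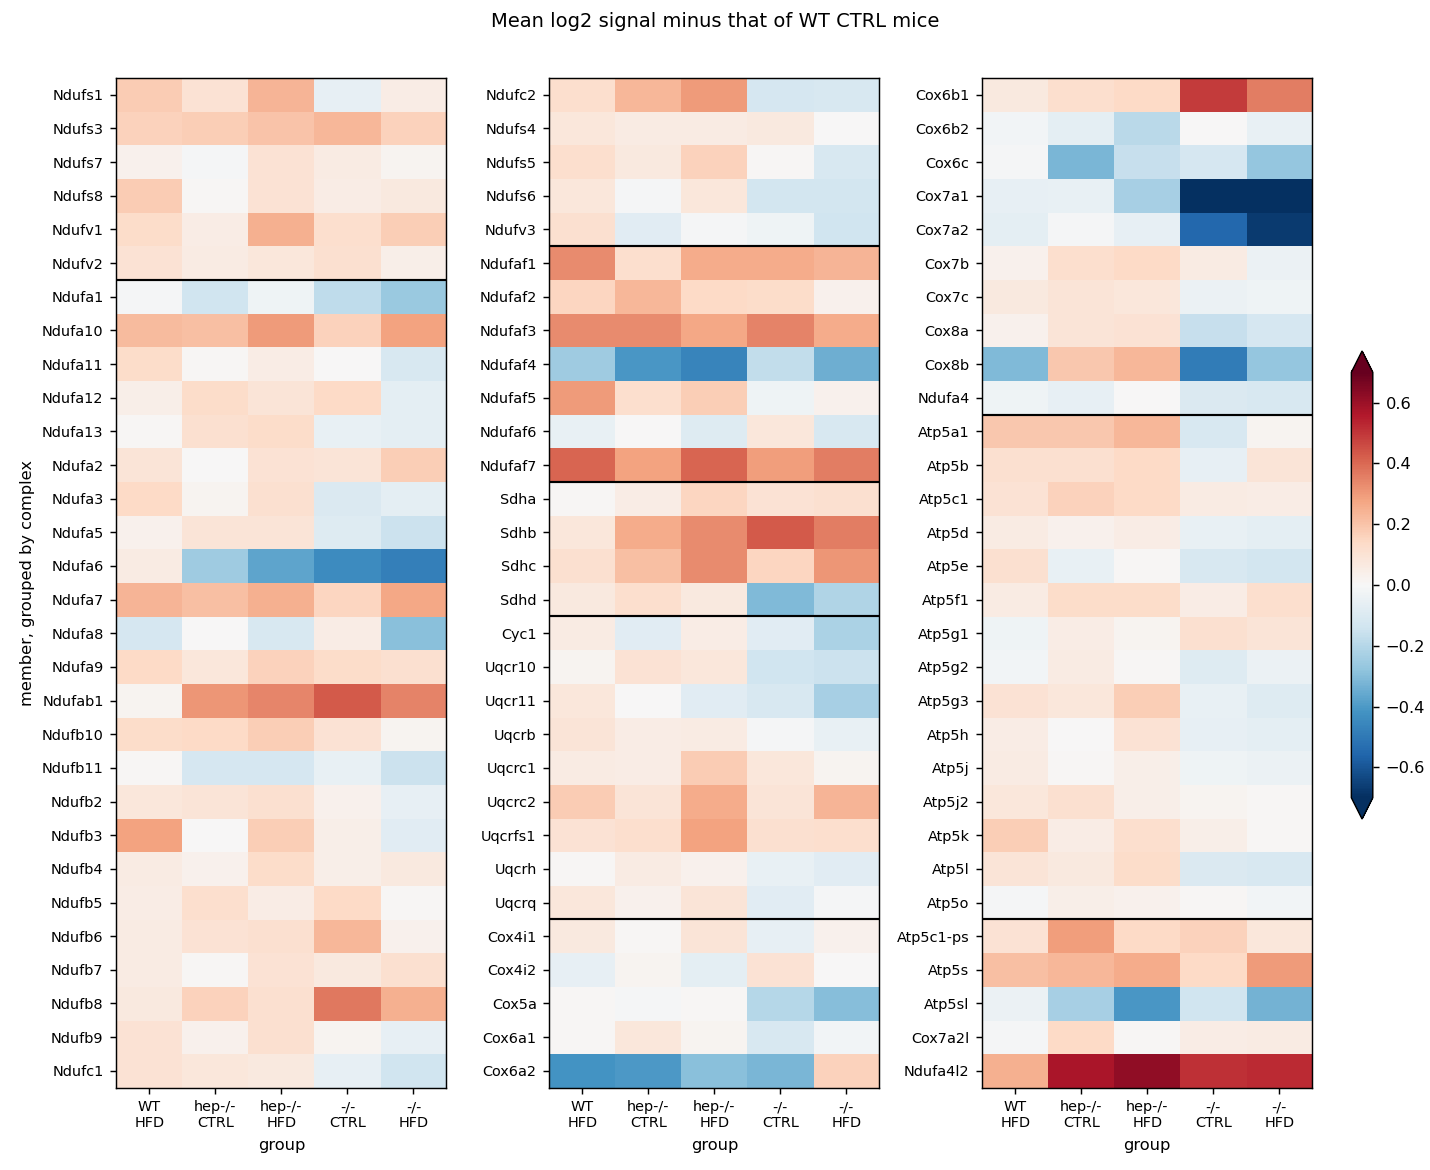
Mean log2 signal of 90 of the 91 members in 5 groups minus the member's mean in WT CTRL mice, with members grouped by complex or role between the black lines, in the order core and supernumerary subunits of complex I, assembly factors, complexes II, III, IV and V, and relatives. Colours run from -0.7 to 0.7 and values beyond are drawn in the end colours. Cox7a1 and Cox7a2 are the darkest blue rows in the Pparα -/- columns, and Ndufa4l2 is red in every column.

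Genes that work with the chain were counted in the same comparisons, and in Pparα -/- against WT livers on the HFD their counts stand against the 24% of all probes that were lower and the 21.8% that were higher. Of 11 subunits encoded in the mitochondrial DNA, 6 were lower and 0 higher in Pparα -/- than in WT livers on the HFD, with ND3 at -0.67 (standard error 0.06, adjusted p = 6.87e-13 by limma), ND6 at -0.51 and COX1 and COX2 at 0 and -0.02. Of 40 assembly factors outside the rule, 18 were lower and 5 higher in Pparα -/- than in WT livers on the HFD. Of 77 mitochondrial ribosomal proteins, 35 were lower and 8 higher. Of 13 tricarboxylic acid cycle enzymes, 9 were lower and 0 higher.

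Of 17 genes of electron carriers and the ATP synthase inhibitor, 11 rose and 1 fell on the HFD in WT livers, where 8.6% of all probes were higher and 10.1% lower. In Pparα -/- against WT livers 7 were lower and 4 higher on the CTRL diet, where 18.7% and 15.6% of all probes were, and 9 were lower and 2 higher on the HFD, where 24% and 21.8% were. Etfdh, which feeds electrons from fatty acid oxidation into ubiquinone, rose by 0.55 in WT livers on the HFD and changed by -1.12 and -1.37 in Pparα -/- against WT livers on the CTRL diet and the HFD (adjusted p = 7.45e-14 and 2.8e-19 by limma), and Etfb, which hands electrons to it, by -0.72 and -0.78. Coq4, which is needed for ubiquinone synthesis, was higher by 1.33 and 1.03, whereas Coq3, Coq7, Coq9, Coq10a, Pdss2 and Adck3, which serve ubiquinone synthesis or function, were lower on the HFD, by -0.22 (Coq9) to -0.53 (Coq7), and Cycs, cytochrome c, by -0.3. Of 12 regulators of mitochondrial biogenesis, 0 rose and 3 fell on the HFD in WT livers, among them Ppargc1a, a coactivator of respiratory genes, which changed by -0.55 (adjusted p = 0.0451). It was also lower, by -0.83, in Pparα -/- than in WT livers on the CTRL diet (adjusted p = 0.001 by limma), whereas on the HFD it was at -0.23 and did not pass. Of 18 PPARα target enzymes of fatty acid oxidation, 13 were lower and 0 higher in Pparα -/- than in WT livers on the HFD, against the same 24% and 21.8%.

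Markers of macrophages moved with the HFD comparison of Pparα -/- and WT livers. All 5 of them, Adgre1, Cd68, Lyz2, Cd5l and Clec4f, were higher, by 1.75, 1.68, 1.9, 1.13 and 0.68. In Pparα hep-/- against WT livers on the HFD 4 of the 5 were higher, by 0.99 (Adgre1) to 1.27 (Lyz2). In Pparα -/- against Pparα hep-/- livers on the HFD Adgre1 was higher by 0.76, and the other 4 did not pass. From the CTRL diet to the HFD all 5 rose in Pparα -/- livers, by 0.54 (Clec4f) to 1.17 (Cd68). In Pparα hep-/- livers Adgre1, Cd68 and Lyz2 rose by 0.65, 0.69 and 1.05, whereas Clec4f and Cd5l did not pass. The 5 did not pass in WT livers. The summed signal of the 5 ran from 13400 to 75300 (median 27100) in WT HFD mice, from 36100 to 77000 (median 52000) in Pparα hep-/- HFD mice and from 44000 to 93300 (median 75700) in Pparα -/- HFD mice. The summed signal of the 6 hepatocyte markers had medians of 1360000, 1360000 and 1350000 in these groups, although Apoa1 and Cps1 were lower in Pparα -/- than in WT livers, by -0.18 and -0.46 (adjusted p = 0.0205 and 0.0422 by limma). From the CTRL diet to the HFD Cps1 changed by -0.88, -0.53 and -0.71 in WT, Pparα hep-/- and Pparα -/- livers. In Pparα -/- livers Tat also fell, by -0.6, and Apoa1 rose by 0.23. Of the 3 adipocyte markers tested, Cfd and Cidea were higher by 5.79 and 2.64 on the HFD in WT livers and lower by -7.87 and -3.62 in Pparα -/- than in WT livers on the HFD, whereas Lep was at 0 and -0.07 and did not pass. In Pparα hep-/- against WT livers on the HFD, Cfd and Cidea were lower by -6.93 and -2.81, and Lep (-0.19) did not pass. Among CTRL-fed mice Cfd was lower by -2.73 in Pparα -/- than in WT livers, whereas Cidea (-1.15) and Lep (-0.01) did not pass. Of 2 pancreas markers tested, Cela1 was lower by -0.79 and Amy2a5 higher by 0.41 in Pparα -/- than in WT livers on the HFD, and on the CTRL diet Amy2a5 was higher by 0.48, as was Alas2, 1 of 3 red blood cell markers, by 0.88. The part of these cells in the members' changes was not tested. On the CTRL diet, where 2 of the 5 macrophage markers were higher in Pparα -/- than in WT livers, Cox7a1, Cox7a2, Ndufa6 and Cox6b1 differed as above.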

How the data were processed

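Liver RNA of 48 mice was hybridised to 1-colour Agilent arrays, and the authors deposited each array's median, mean and processed intensity per spot from Agilent's Feature Extraction (version 10.10.1.1 in the file headers), with probe positions on mm9. Their table of log2 values, also deposited, was used as an alternative; its methods name a filter, a correction for the washing bath and quantile normalization. Precision rests on the 8 mice per group, since arrays carry no read depth.

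Median intensities of non-control spots were taken to log2, outlier spots were left out, and spots of a probe were averaged. The 33323 probes that 4 or more of the 8 arrays of any group measured well above background were quantile normalized, and limma 3.58.1 in R 4.3.3 was fitted with 6 group means, a wash batch term and array weights. Benjamini-Hochberg adjustment ran over all tested probes in each comparison, and 0.05 was the threshold. Alternatives were other scalings, no array weights, no wash term, slide or replicate number as a block, no filter, 4 arrays left out, and all probes of a gene.

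The members and lists were chosen with earlier results of these data known. Named genes are, for each comparison, the 5 called members with the largest change in each direction (3 for differences of responses), 12 central subunits, the isoform pairs and Ppara, of which the text gives most. Other members are named after their values were seen. A central subunit is not reported here by name. The mice of a group are taken as separate animals from the labels.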

Additional observations from a re-analysis of the deposited data

Results flagged for a closer look

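Of 120 groups of 8 mice, in 20 members whose values were examined, 8 held a mouse that stood apart from the other 7 by Dixon's test, and chance gives about 1 in 20. The lowest mouse was at 14.71 for Sdhd and 9.55 for Ndufaf3 in Pparα hep-/- CTRL mice, and the highest was at 7.66 for Cox6a2, all in the mouse whose array had the lowest weight. The lowest was at 14.67 for Ndufab1 in Pparα -/- CTRL mice. The highest mouse was at 10.28 for Ndufaf3 in Pparα hep-/- HFD mice, at 15.72 for Cox5a in Pparα -/- HFD mice, at 8.07 for Cox8b in Pparα hep-/- CTRL mice, and at 8.56 for Cox8b in WT CTRL mice, whose next mouse was at 6.06.

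The response to the HFD differed between genotypes by a test of the difference in limma. In Pparα -/- against WT livers the differences were -0.47 for Ndufb3, -0.42 for Ndufaf3 and -0.38 for Ndufaf1. In Pparα hep-/- against WT livers they were -0.44 for Ndufaf3, -0.34 for Ndufaf7 and -0.26 for Ndufa7. In Pparα -/- against Pparα hep-/- livers they were -0.37 for Cox6c, -0.33 for Cyc1 and -0.31 for Ndufb3. For Cyc1 a second bright probe did not share the sign.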

How the results depend on the processing

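Of 120 recomputed counts of called members, 83 were within 1.5 times the value reported and 37 were not. Of 810 recomputed single-gene results, 712 kept their direction and call, 92 lost the call and 6 reversed. Without array weights the counts were 15, 1 and 4 for the HFD response in WT, Pparα hep-/- and Pparα -/- livers, 16 for Pparα hep-/- against WT on the CTRL diet, 36, 7 and 30 on the HFD for Pparα -/- against WT, Pparα hep-/- against WT and Pparα -/- against Pparα hep-/-, and 8, 0 and 0 for the differences of responses (Pparα -/- less WT, Pparα hep-/- less WT, Pparα -/- less Pparα hep-/-), where limma gave 26, 5 and 13 under an unadjusted p of 0.05. No share of all probes is given for the unadjusted p. At the adjusted threshold 5.95%, 1.58%, 5.78%, 7.43%, 15.2%, 4.56%, 8.81%, 2.49%, 0.252% and 0.234% of all probes were higher, in that order. Likewise 6.66%, 2.23%, 6.33%, 9.12%, 16.5%, 5.18%, 9.33%, 2.73%, 0.642% and 0.096% were lower. With the processed signal scaled to the 75th percentile the counts were 15, 36 and 54 for the responses, 16 for Pparα -/- against WT on the CTRL diet, 51 for Pparα hep-/- against WT on the HFD, and 56, 37 and 1 for the differences. Of all probes 9.09%, 8.65%, 10.4%, 15.1%, 12.4%, 5.11%, 4.15% and 1.89% were higher, in that order. Likewise 9.09%, 16.4%, 16%, 19.5%, 20.4%, 9.71%, 9.05% and 0.99% were lower. With no wash term the counts were 9 and 10 for the responses in the deletions, 10 for Pparα hep-/- against WT on the HFD, and 11 and 2 for the differences of Pparα -/- from WT and from Pparα hep-/-. Of all probes 5.43%, 10.7%, 9.25%, 4.54% and 1.47% were higher, in that order. Likewise 7.29%, 9.8%, 9.12%, 4.76% and 0.81% were lower. With no filter the counts were 5 and 7 for the responses in the deletions, 16 and 18 for Pparα -/- against WT and against Pparα hep-/- on the CTRL diet, 10 for Pparα hep-/- against WT on the HFD, and 12, 3 and 1 for the differences. Of all probes 2.97%, 5.47%, 7.99%, 5.92%, 5.15%, 2.18%, 0.751% and 0.477% were higher, in that order. Likewise 3.35%, 5.17%, 9.48%, 6.54%, 4.8%, 2.28%, 1.42% and 0.228% were lower. Slide as a block gave 13 for Pparα hep-/- against WT on the HFD and 3 for the last difference, normexp gave 10 for the last difference, and for Pparα hep-/- less WT leaving out the 4 arrays of lowest weight gave 12 and all probes of a gene 11. Except for the last of these, 11.6%, 1.75%, 2.42% and 6.18% of all tested probes were higher, in that order. Likewise 11.7%, 0.975%, 1.54% and 7.34% were lower. The cause of these moves was not tested.

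The 6 reversals all came from the 75th percentile scaling: Ndufv1 (-0.01) in the Pparα hep-/- response, Atp5a1 (-0.11) and Atp5b (-0.13) in the Pparα -/- response, Sdhb against WT on the HFD in Pparα -/- (0) and Pparα hep-/- livers (-0.03), and Ndufc2 in Pparα hep-/- livers against WT on the HFD (-0.05). With the replicate block 3 members were called in the last difference, where 1.77% of all probes were higher and 1.01% lower. The other counts stayed within 1.5 times. Replicate numbers showed no pairing of mice, since the deviations of 120 same-numbered pairs had a mean correlation of 0.014 (-0.465 to 0.694), and 10 of 48 mice correlated best with their own number. With 8 mice per group, no mouse was left out singly. Signals near background limit Cox8b and Cox6a2.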
